A study of Schmidtea mediterranea with 40 samples.

Results

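The effect of *activin-2* RNAi was described in wound tissue of the planarian *Schmidtea mediterranea* at posterior-facing wounds whose label gives 6 hours post amputation (hpa). The members are the 6 libraries with that label, of 40 in the series. They hold 3 of *activin-2* RNAi and 3 of control RNAi. All animals were of the strain CIW4, and no transgene or mutation is named. In the *activin-2* RNAi arm they ate double-stranded RNA (dsRNA) of *activin-2*, and in the control RNAi arm dsRNA of *unc-22*, which is named after a *Caenorhabditis elegans* gene. Both arms received 4 feedings over 14 days and were cut 7 days after the last of them. Poly(A) RNA came from post-pharyngeal fragments, with 5 wounds pooled per replicate according to the labels. No label says that replicates were separate cultures, so p-values measure only the spread between these libraries. Ages were not given in the sources used here.

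Activins are secreted ligands of the TGF-beta superfamily. They bind receptor kinases at the cell surface, which phosphorylate SMAD transcription factors, and the secreted antagonist Follistatin binds them outside the cell. Planarians regrow a head at anterior-facing wounds and a tail at posterior-facing wounds, and muscle cells express many of the genes that carry this positional information. Their gut is a blind, branched sac made of phagocytic absorptive cells and of secretory cells that release digestive enzymes. Dividing cells called neoblasts supply all new tissue.

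The 6 libraries held between 11414898 and 13349346 counted reads, and libraries of the whole series between 2524235 and 13381025. Levels below are in RPM, the read count over the library total times 1000000, on which scale 1 read stood for 0.0749 to 0.0876. Log2 levels correlated at 0.980 to 0.991 within the *activin-2* RNAi arm, at 0.987 to 0.989 within the control RNAi arm and at 0.976 to 0.988 between arms. Markers of neoblasts and of longitudinal muscle were present in all 6 libraries. The neoblast Piwi gene *smedwi-1* had 988, 1069 and 1036 RPM in *activin-2* RNAi and 1018, 1077 and 1112 RPM in control RNAi. The muscle factor *myoD* had 22.6, 23.3 and 20.6 RPM in *activin-2* RNAi and 21.9, 21.9 and 21.6 RPM in control RNAi. The fragments were cut behind the pharynx, and the pharynx marker contig dd_554 had 2.33, 0.899 and 10.8 RPM in *activin-2* RNAi and 0.460, 0.0756 and 0.350 RPM in control RNAi. Its change missed the threshold (adjusted p = 0.0835). The marker dd_372 had 0.233, 0.0749 and 4.76 RPM in *activin-2* RNAi and 0.153, 0.0756 and 0.00 RPM in control RNAi and was too low to be tested. All 4 pharynx markers, with dd_561 and dd_8673 given below, had their highest level in *activin-2* RNAi replicate 3, and their part in other results was not tested. Contigs are named here by the number in their identifier, so that dd_554 stands for dd_Smed_v6_554_0_1, and dd_10_1 for dd_Smed_v6_10_1_1. They are transcriptome contigs without genome coordinates.

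The labelled time may have been exchanged with another. Early wound transcription factors of control RNAi libraries did not follow the labels in time order. *fos-1*, an AP-1 factor, had medians of 198 RPM at the label 0, 175 RPM at 6, 160 RPM at 18, 74.9 RPM at 24 and 191 RPM at 48 hpa in posterior-facing control wounds, where the orientation of those labelled 0 hpa is not given. *runt-1*, a wound-induced transcription factor, had medians of 5.38, 1.66, 3.98, 0.592 and 12.9 RPM over the same labels in control RNAi. The libraries labelled 24 hpa were thus lowest for both genes, and for *runt-1* those labelled 6 hpa came next. Of the 128 contigs that the study lists as wound-induced from earlier in situ work, 122 were tested between the labels 6 and 0 hpa in control RNAi, and 11 were lower and 0 higher at the label 6 (edgeR's quasi-likelihood test with a Benjamini-Hochberg adjusted p under 0.05, which 0.821% of all contigs passed). In *activin-2* RNAi, 11 of 125 were lower and 1 was higher, with 1.13% of all contigs called. All times below are labels.

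**Figure D1:**
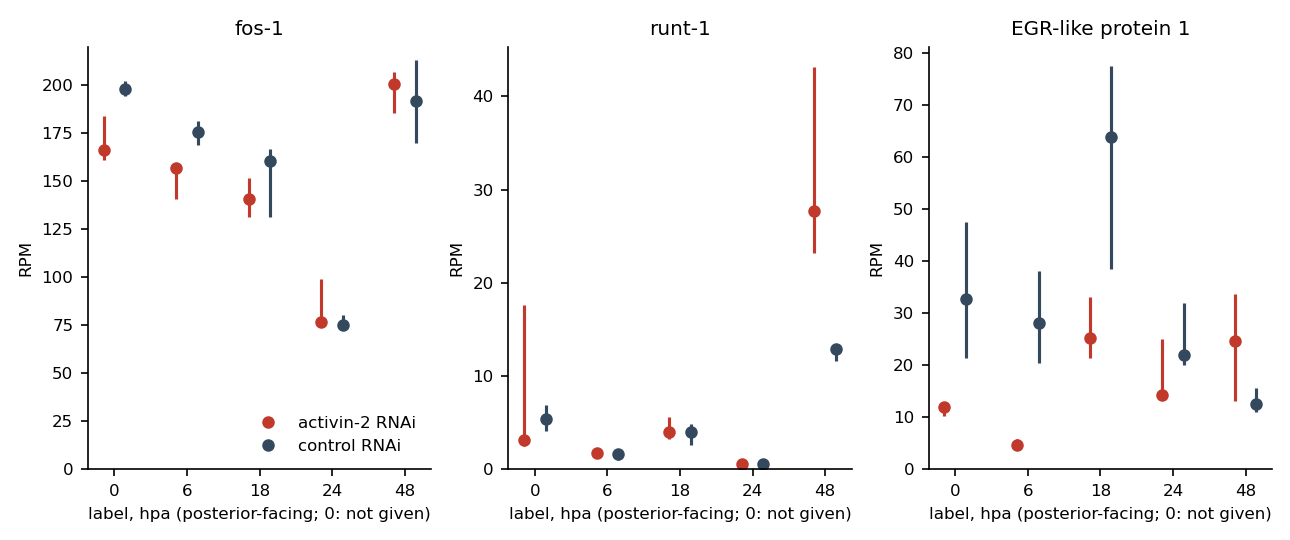
Levels in RPM of *fos-1*, *runt-1* and *EGR-like protein 1* by labelled time at posterior-facing wounds, with *activin-2* RNAi left of control RNAi. Points are medians and lines run from the lowest to the highest library (3 per arm, 4 at 18 hpa). Both *fos-1* and *runt-1* have their lowest control median at the label 24 hpa, 74.9 and 0.592 RPM.

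*activin-2* itself, contig dd_3324, fell to 2.25, 2.92 and 3.09 RPM in *activin-2* RNAi, against 45.8, 40.2 and 42.6 RPM in control RNAi. The arms were far apart, and the log2 change was -3.85 ± 0.13 (SE; adjusted p = 5.55e-06), which is 0.0694 times the control level. It was called in all 6 fits that left out a library. The receptor gene *ActR-1* had 92.2, 93.1 and 103 RPM in *activin-2* RNAi and 98.7, 97.7 and 99.7 RPM in control RNAi, a log2 change of 0.00 ± 0.06.

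Across all contigs, 122 rose and 208 fell in *activin-2* RNAi, 330 of 16536 tested or 2.0% (0.738% higher and 1.26% lower). Most changes were small. The median log2 change was 0.46 among the contigs that rose and -0.63 among those that fell, and 19 of the first and 42 of the second changed by more than 1 on the log2 scale. The arms did not overlap in RPM for any of the 330, as was so for 23.9% of all tested contigs (9.05% higher and 14.9% lower). The count depended on single libraries. It was 64, 67 and 720 without *activin-2* RNAi replicates 1, 2 and 3, and 68, 98 and 185 without control RNAi replicates 1, 2 and 3. With scaling by library size only, 111 were higher and 302 lower. DESeq2 called 328 higher (2.58%) and 439 lower (3.45%) of 12707 with an adjusted p (6.04%). In bulk tissue, fewer cells of a type and less RNA per cell cannot be told apart.

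**Figure D2:**
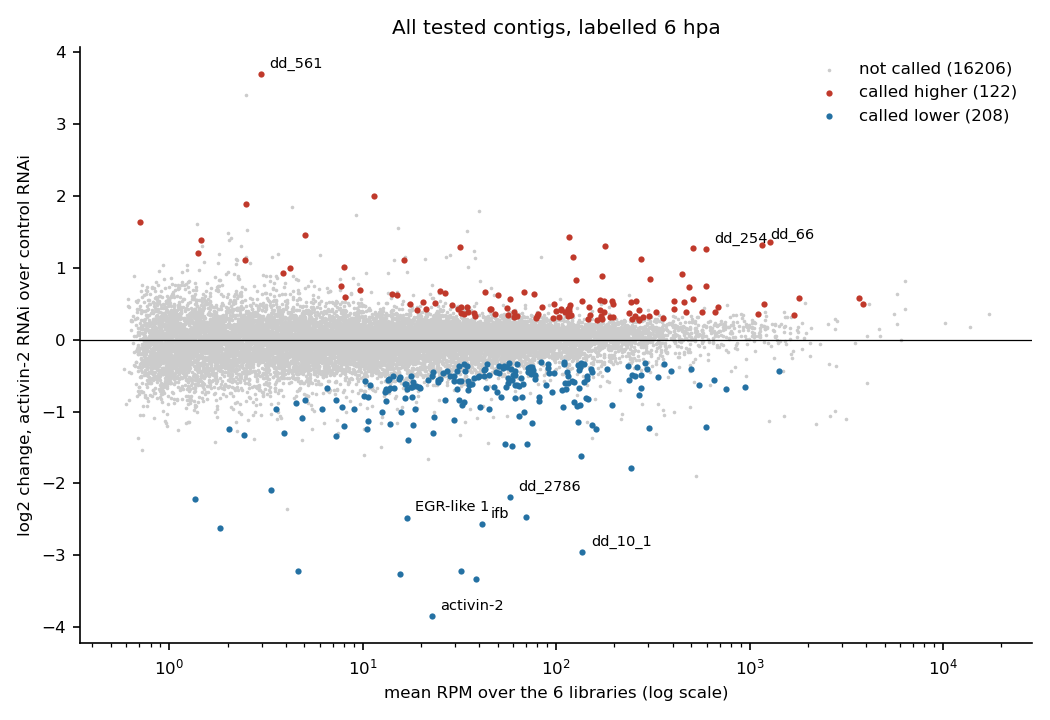
Each tested contig (16536) as its log2 change between *activin-2* RNAi and control RNAi, plotted against the mean RPM over the 6 libraries (log scale). Red points are the 122 contigs called higher and blue points the 208 called lower at an adjusted p under 0.05. *activin-2* is the lowest point at -3.85, and the secreted protease contigs dd_66 and dd_254 stand among the highest of the abundant contigs.

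Several abundant contigs that rose encode secreted digestive-type enzymes. Of 90 tested contigs with peptidase or lipase annotations of a digestive type, 9 rose and 2 fell (12.2% called, against 2.0% of all contigs), with a median log2 change of -0.08 over the list against -0.00 over all contigs. Only 36 of the 90 had a positive change. The summed level of the list overlapped between arms, at 28980 to 34210 RPM in *activin-2* RNAi and 25950 to 38160 RPM in control RNAi. The list was chosen after values had been seen, and the 9 rises are thus a description. The trypsin-domain contig dd_66, with a best human match to the kallikrein-related peptidase gene KLK13, had 1624, 1717 and 1563 RPM in *activin-2* RNAi and 766, 607 and 656 RPM in control RNAi (log2 change 1.31 ± 0.11, adjusted p = 0.00288). No control library came near the lowest *activin-2* RNAi library. The astacin-family metallopeptidase contig dd_254, matched to MEP1A, had 781, 837 and 873 RPM in *activin-2* RNAi and 382, 326 and 360 RPM in control RNAi (log2 change 1.26 ± 0.08, adjusted p = 0.000626).

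3 further trypsin-domain contigs matched KLK13 and rose as well. Contig dd_4570 changed by 1.29 ± 0.16, dd_3728 by 1.11 ± 0.11 and dd_975 by 0.88 ± 0.09 on the log2 scale. Whether reads were shared between these similar contigs was not tested. The gastric lipase-like contig dd_257 had 734, 811 and 676 RPM in *activin-2* RNAi and 473, 434 and 453 RPM in control RNAi (log2 change 0.75 ± 0.10, adjusted p = 0.00999). 2 abundant contigs matched to the serine protease gene PRSS12 rose less, dd_790 by 0.58 ± 0.10 and dd_1926 by 0.54 ± 0.06. Another PRSS12 match, dd_351, went the other way and was chosen after its values were seen. It had 1354, 1174 and 1186 RPM in *activin-2* RNAi and 1658, 1975 and 1547 RPM in control RNAi. Its log2 change of -0.44 ± 0.11 missed the threshold in edgeR (adjusted p = 0.0741), while DESeq2 called it lower (adjusted p = 0.000407). The 9 contigs of the list that rose kept their direction when any library was left out, and 8 were called in all 6 such fits. The other, dd_790, was called in 1. Over the list, 8 contigs rose in each such fit, except without *activin-2* RNAi replicate 3, where 15 did, and 7 fell without control RNAi replicate 2. Of all contigs, 379 rose without *activin-2* RNAi replicate 3 and 72 fell without control RNAi replicate 2.

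Contigs of unlike annotation moved by similar amounts. The ShK-domain contig dd_122, a small cysteine-rich fold found in toxins and secreted enzymes, had 1801, 1931 and 1739 RPM in *activin-2* RNAi and 815, 667 and 701 RPM in control RNAi (adjusted p = 0.00178). It was named after its values were seen. Contig dd_214_1, matched to the lipid-binding lysosomal protein gene GM2A, rose by 0.85 ± 0.10, and dd_73, matched to the sterol-binding protein gene NPC2, rose by 0.74 ± 0.13. The second of these had 558, 705 and 552 RPM in *activin-2* RNAi and 427, 335 and 354 RPM in control RNAi. Contigs dd_279, annotated to muscle of unclear type, and dd_634, annotated to gut muscle, have no description and rose by 1.27 ± 0.12 and 0.92 ± 0.09. The pharynx markers were highest in *activin-2* RNAi replicate 3, whereas dd_66, dd_975 and dd_257 had their lowest *activin-2* RNAi value in that library and dd_254 its highest.

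Not every secreted protease rose. The 3 most abundant astacin-family contigs, dd_51_1, dd_76 and dd_85, had lower means in *activin-2* RNAi but overlapping arms. Contig dd_51_1 had 2545, 1965 and 1388 RPM in *activin-2* RNAi and 4950, 1665 and 6365 RPM in control RNAi, and its log2 change of -1.10 ± 0.43 missed the threshold (adjusted p = 0.226). Control RNAi replicate 2 was the low library for all 3. Contig dd_300, a Kunitz-type protease inhibitor, had 5192, 4912 and 14230 RPM in *activin-2* RNAi and 4337, 5090 and 4537 RPM in control RNAi, so that *activin-2* RNAi replicate 3 alone stood apart. The carboxypeptidase O-like contig dd_5999 fell by 0.51 on the log2 scale. These contigs were chosen after their values were seen. Over the whole list of serine proteases and inhibitors, 6 of 60 rose and 2 fell (13.3%), and the median log2 change was -0.01. All 6 that rose are also among the digestive-type contigs that rose, so the lists are not separate results. Both that fell carry inhibitor domains, the Kazal domain of Follistatin and the Kunitz domain of dd_2293.

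**Figure D3:**
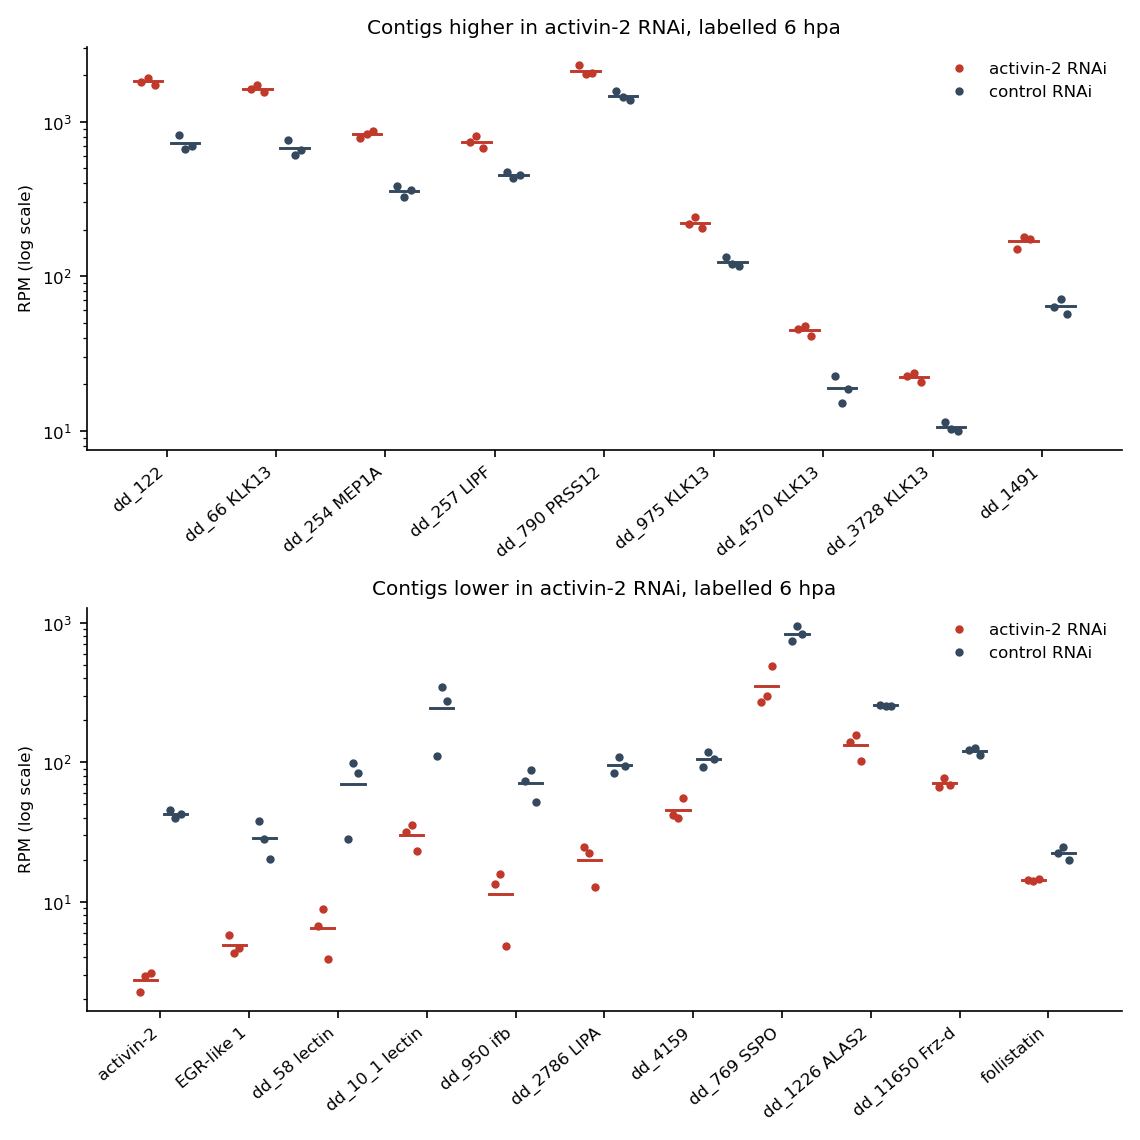
RPM per library (log scale) of contigs that rose (upper panel) and fell (lower panel), with *activin-2* RNAi left of control RNAi. Each point is 1 library and each line the mean of 3. All contigs shown were picked from the called ones, whose arms never overlapped, so their separation follows from the choice. Control RNAi replicate 1 is the low control library for the lectin contigs dd_58 and dd_10_1.

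The annotation column from single cells has 2 gut labels. Of 419 tested contigs with the label Gut, 20 rose (4.77%) and 6 fell (1.43%), beside 0.738% and 1.26% of all contigs. Of 397 with the label Gut (2), 3 rose (0.756%) and 15 fell (3.78%). The difference between the labels was not tested. The median log2 changes were 0.09 for Gut and -0.06 for Gut (2). DESeq2 called 39 higher and 9 lower for Gut, and 12 higher and 25 lower for Gut (2), beside 2.58% higher and 3.45% lower of all contigs. Between 2 and 5 Gut contigs rose without any 1 of the other libraries, but 47 did without *activin-2* RNAi replicate 3, where 379 of all contigs did. Between 3 and 19 Gut (2) contigs fell in those fits, and 39 to 341 of all contigs. What the labels stand for was not given in the sources used here, and most of the digestive enzymes above have no label.

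Summed over all contigs of the label Gut, *activin-2* RNAi libraries held 63500 to 70260 RPM and control RNAi libraries 60560 to 63360 RPM. For Gut (2) the sums were 40850 to 43240 RPM in *activin-2* RNAi and 43290 to 43860 RPM in control RNAi. Both sums were apart between arms by small margins. Among Gut contigs that rose were dd_354, a tetraspanin with 1199, 1254 and 1212 RPM in *activin-2* RNAi and 983, 947 and 1000 RPM in control RNAi, and dd_1726, a ceramidase that rose by 0.52 ± 0.07. Among Gut (2) contigs that fell were the aminopeptidase-like dd_181 (log2 change -0.44 ± 0.09), the chloride channel accessory-like dd_696 (-0.68 ± 0.08), the immunoglobulin-domain contig dd_1862 (-0.64 ± 0.07) and the lectin dd_652 (-0.40 ± 0.08).

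Of 142 tested homeobox, forkhead and SOX contigs, 4 rose and 1 fell (3.52%), with a median log2 change of 0.06. The calls depended on single libraries: 4 were higher without *activin-2* RNAi replicate 3, where 379 of all contigs were, and 0 or 1 without any other library. The Gut-annotated homeobox contig dd_2716 was matched to the human gene NKX2-2 and annotated in planarians as Hmx-1. It had 194, 204 and 198 RPM in *activin-2* RNAi and 149, 127 and 142 RPM in control RNAi (log2 change 0.55 ± 0.08, adjusted p = 0.0204). The nuclear receptor *hnf4*, contig dd_1694, which marks gut in planarians and carries the label Gut (2), had 369, 379 and 351 RPM in *activin-2* RNAi and 302, 276 and 289 RPM in control RNAi (adjusted p = 0.0489) and was chosen after its values were seen. The forkhead contig dd_16297 was annotated in planarians as Forkhead box A-1, but its best human match was FOXC2 and its single-cell label was Unclear. It had 2.79, 3.52 and 3.93 RPM in *activin-2* RNAi and 1.38, 1.66 and 1.58 RPM in control RNAi (log2 change 1.11 ± 0.21, adjusted p = 0.0406). It was called in 1 of the 6 fits that left out a library. FoxA specifies the pharynx in planarians. Of the pharynx markers, dd_561 and dd_8673 were called higher, in 2 and 0 of those fits, and the other pair were not called. Their part in this change was not tested. The SOX contig dd_7227 rose by 0.39 ± 0.07, as did the HMG-box contig dd_1331 by 0.28 ± 0.06.

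The wound-induced genes moved both ways. Of 124 tested, 7 rose and 6 fell (10.5%), and the median log2 change was -0.09. Between 1 and 6 rose and between 2 and 5 fell when 1 library was left out. The largest fall was that of *EGR-like protein 1*, dd_7731, a zinc finger transcription factor of the early growth response family. It had 5.82, 4.27 and 4.68 RPM in *activin-2* RNAi and 38.1, 28.1 and 20.3 RPM in control RNAi (log2 change -2.48 ± 0.24, adjusted p = 0.00534). All *activin-2* RNAi libraries were several-fold below the lowest control library.

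2 contigs outside this list, annotated as Early GF3, also fell. The zinc finger contig dd_12410, matched to EGR1, had 0.698, 0.225 and 0.251 RPM in *activin-2* RNAi and 5.21, 2.95 and 1.66 RPM in control RNAi, from 9, 3 and 3 counted reads in *activin-2* RNAi (adjusted p = 0.0390). Contig dd_14711, with that annotation alone, had 0.465, 0.0749 and 0.585 RPM in *activin-2* RNAi and 2.68, 2.12 and 2.19 RPM in control RNAi. Both were called in only 2 and 1 of the 6 fits that left out a library. Of the 41 tested immediate early and stress transcription factors, 2 fell and 0 rose (4.88%), both of the EGR family. *fos-1* had 157, 157 and 141 RPM in *activin-2* RNAi and 181, 169 and 175 RPM in control RNAi, and missed the threshold (adjusted p = 0.340).

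Other wound-induced contigs that fell included the TNF receptor-associated factor-like dd_4392 (-0.85 ± 0.14), dd_3257 (-0.91 ± 0.17), dd_5999 and the kynureninase dd_4299 (-0.45 ± 0.09). The Frizzled contig dd_11650, given below, is also on the wound-induced list and fell. Those that rose included the innexins dd_11254 (0.41 ± 0.08) and dd_11501 (0.43 ± 0.08), subunits of gap junctions. Contig dd_1531, which has no description, had 166, 155 and 164 RPM in *activin-2* RNAi and 81.3, 94.5 and 104 RPM in control RNAi (log2 change 0.83 ± 0.09, adjusted p = 0.00585). 2 of the 7 that rose are dd_561 and dd_8673, which moved with the pharynx marker dd_554. Contig dd_561 had 4.03, 1.50 and 11.5 RPM in *activin-2* RNAi and 0.306, 0.227 and 0.350 RPM in control RNAi. dd_8673, calpain-like, had 0.931, 0.824 and 1.67 RPM in *activin-2* RNAi and 0.306, 0.227 and 0.263 RPM in control RNAi.

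The polarity genes *notum* and *wnt1* did not pass the test. *notum*, which encodes a Wnt-inactivating enzyme, had 3.49, 4.27 and 3.01 RPM in *activin-2* RNAi and 4.21, 3.86 and 4.12 RPM in control RNAi (log2 change -0.13 ± 0.20, adjusted p = 0.802). *wnt1*, a posterior Wnt ligand, had 1.09, 0.674 and 0.752 RPM in *activin-2* RNAi and 1.84, 2.12 and 1.58 RPM in control RNAi. The arms of *wnt1* did not overlap, but its change missed the threshold (adjusted p = 0.0966). *inhibin-1* (0.07 ± 0.18), *wntless* (0.04 ± 0.15), *nlg-1* (-0.20 ± 0.15), *runt-1* (0.15 ± 0.28), *hadrian* (0.56 ± 0.31), *fascin-1* (-0.33 ± 0.12) and the anterior Wnt antagonist *sFRP-1* (-0.78 ± 0.31) had log2 changes that were not called either, which does not show that they were unaffected.

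Follistatin is an extracellular antagonist of Activin ligands. Its gene *follistatin*, dd_9584, annotated to wound-response muscle, had 14.4, 14.0 and 14.6 RPM in *activin-2* RNAi and 22.3, 24.7 and 19.9 RPM in control RNAi (log2 change -0.59 ± 0.10, adjusted p = 0.0280). It was called in 2 of the 6 fits that left out a library. Of 39 tested contigs of the TGF-beta superfamily list, 2 rose and 2 fell (10.3%), with a median log2 change of 0.07. The falls were *activin-2*, the RNAi target itself, and *follistatin*. The rises were dd_1088 and dd_1505, extracellular fasciclin-domain proteins matched to TGFBI, a product induced by TGF-beta in mammals. The 10.3% thus counts the target and contigs listed for the name of their match, and is no measure of the pathway. Contigs dd_1088 and dd_1505 changed by 0.39 ± 0.08 and 0.46 ± 0.09, and each was called in 1 of the 6 fits that left out a library. The contig dd_7311, matched to a latent TGF-beta binding protein, lay outside this list and fell by 0.44 on the log2 scale.

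In the Wnt list, 2 of 48 contigs fell and 0 rose (4.17%), and the median log2 change was 0.01. The Frizzled receptor contig dd_11650, annotated as Frz-d, had 66.2, 77.0 and 68.9 RPM in *activin-2* RNAi and 122, 127 and 113 RPM in control RNAi (log2 change -0.73 ± 0.08, adjusted p = 0.00585). The arms were well apart. The ligand gene *wnt11-1*, dd_14391, had 26.1, 33.9 and 25.5 RPM in *activin-2* RNAi and 44.0, 45.6 and 44.9 RPM in control RNAi (log2 change -0.61 ± 0.12, adjusted p = 0.0417). It was called in 2 of the 6 fits that left out a library, and dd_11650 in all of them.

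Some of the deepest falls after *activin-2* were of C-type lectin contigs, whose proteins bind carbohydrates. Contig dd_10_1 had 31.8, 35.5 and 23.1 RPM in *activin-2* RNAi and 112, 344 and 274 RPM in control RNAi (log2 change -2.95 ± 0.37, adjusted p = 0.00934). Contig dd_58 had 6.75, 8.91 and 3.93 RPM in *activin-2* RNAi and 28.0, 99.2 and 84.0 RPM in control RNAi (log2 change -3.33 ± 0.46), and dd_79 changed by -3.22 ± 0.47. Control RNAi replicate 1 was the lowest control library for all 3 contigs, though still above every *activin-2* RNAi library. The undescribed contigs dd_33 (-3.26 ± 0.43) and dd_135 (-2.47 ± 0.30) showed the same order of libraries, with 18.3, 26.4 and 16.9 RPM for dd_135 in *activin-2* RNAi and 65.7, 157 and 134 RPM in control RNAi. Of 20 tested lectin-domain contigs, a list chosen after values had been seen, 4 fell and 1 rose (25.0%), the last being the protease contig dd_790. 1 to 4 of the list were called lower when a library was left out.

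Intermediate filament genes encode a scaffold of the cytoplasm or of the nuclear envelope. Of 11 tested, 4 fell and 0 rose (36.4%), 1 of the 11 had a positive log2 change, and the median was -0.35. This list was also chosen after values had been seen. The *ifb* contig dd_950 had 13.5, 15.8 and 4.85 RPM in *activin-2* RNAi and 73.4, 88.7 and 51.9 RPM in control RNAi (log2 change -2.57 ± 0.35, adjusted p = 0.0140). Contig dd_3065 had 71.0, 98.5 and 113 RPM in *activin-2* RNAi and 227, 278 and 179 RPM in control RNAi (-1.24 ± 0.17), and dd_3871 (-1.15 ± 0.17) and dd_364 (-0.68 ± 0.14) also fell. *activin-2* RNAi replicate 3 was the lowest library for dd_950 but the highest *activin-2* RNAi library for dd_3065 and dd_3871. Between 0 and 4 of the list were called lower when 1 library was left out, and 0 without control RNAi replicate 1.

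Other contigs that fell had varied annotations. The contig dd_2786, matched to lysosomal acid lipase (LIPA), an enzyme that hydrolyses cholesteryl esters, had 24.9, 22.3 and 12.8 RPM in *activin-2* RNAi and 83.6, 109 and 93.9 RPM in control RNAi (log2 change -2.19 ± 0.22, adjusted p = 0.00534). The LCCL-domain contig dd_4159 had 42.0, 39.8 and 55.7 RPM in *activin-2* RNAi and 91.7, 118 and 105 RPM in control RNAi (-1.16 ± 0.12), and dd_2225, which also carries a ribosomal protein domain, fell by 0.93. Both were called in every fit that left out a library. The thrombospondin-repeat contig dd_769, matched to SCO-spondin, had 272, 301 and 487 RPM in *activin-2* RNAi and 742, 942 and 824 RPM in control RNAi (-1.21 ± 0.18). It was called in only 1 of those fits. The kringle-domain contigs dd_9220 (-1.06 ± 0.13) and dd_15272 (-1.01 ± 0.13), both annotated as Plasminogen-1, fell together. The ankyrin-repeat contig dd_1317 (-1.45 ± 0.15), the synaptotagmin-like dd_13680 (-1.20 ± 0.15) and the beta-lactamase-like dd_7272 (-1.40 ± 0.17) fell as well.

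Of 17 tested contigs for haem and pigment synthesis, a list chosen after values had been seen, 4 fell and 0 rose (23.5%), and the median log2 change was -0.11. The contig dd_1226, matched to ALAS2, whose product starts haem synthesis, had 139, 156 and 102 RPM in *activin-2* RNAi and 258, 254 and 255 RPM in control RNAi (log2 change -0.90 ± 0.15, adjusted p = 0.0266). Kynurenine 3-monooxygenase, dd_7884, which acts in ommochrome pigment synthesis in insects, changed by -0.66 ± 0.08, and kynureninase was given above.

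2 further aromatic amino acid enzymes fell. *tph*, dd_6337, an aromatic amino acid hydroxylase gene whose best human match is phenylalanine hydroxylase, had 92.1, 104 and 115 RPM in *activin-2* RNAi and 181, 214 and 170 RPM in control RNAi (log2 change -0.83 ± 0.09, adjusted p = 0.00585). Tyrosinase, dd_18243, had 3.41, 3.45 and 3.59 RPM in *activin-2* RNAi and 6.43, 7.19 and 5.96 RPM in control RNAi (-0.84 ± 0.15). Both were chosen after their values were seen. Between 0 and 3 of the haem and pigment contigs were called lower when 1 library was left out. Without *activin-2* RNAi replicate 3, 1 contig of that list was called higher, and DESeq2 on all 6 libraries also called 1 higher.

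Muscle-annotated contigs were called at about the rate of all contigs. Of 827 tested muscle-annotated contigs, 7 rose and 10 fell (2.06%, against 2.0% of all contigs), with a median log2 change of -0.03. Of 55 contractile or actin-binding contigs, 2 fell and 0 rose (3.64%). These were the filamin-like dd_12017, with 8.07, 10.3 and 14.4 RPM in *activin-2* RNAi and 22.7, 30.9 and 23.0 RPM in control RNAi (-1.18 ± 0.18), and the calponin-domain contig dd_7845 (-0.46 ± 0.09). 4 contigs annotated as myosin heavy chain A, chosen after their values were seen, fell by 0.37 to 0.68, among them dd_791 with 525, 534 and 496 RPM in *activin-2* RNAi and 876, 758 and 731 RPM in control RNAi. Their best human matches include the unconventional myosin genes MYO6, MYO15A and MYO18A.

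Matrix contigs were called at about the rate of all contigs (2.0%), and neoblast, neural and cilia contigs at lower rates. Of 92 tested extracellular matrix contigs, 1 rose and 1 fell (2.17%). The collagen cross-linking enzyme gene LOXL2 was the match of dd_7096, which had 31.3, 33.4 and 26.6 RPM in *activin-2* RNAi and 17.5, 19.4 and 21.6 RPM in control RNAi (0.68 ± 0.12). The laminin alpha contig dd_2483, a basement membrane protein, had 81.5, 80.2 and 98.5 RPM in *activin-2* RNAi and 139, 132 and 132 RPM in control RNAi (-0.60 ± 0.07, adjusted p = 0.00934). Of 384 neoblast-annotated contigs, 5 fell and 0 rose (1.30%), and the median log2 change was 0.02. The contigs that fell included dd_343 (-0.96 ± 0.11), dd_5497 (-0.70 ± 0.09), dd_5935 (-0.64 ± 0.10), which have no description, and the EF-hand contig dd_3149 (-0.80 ± 0.10). All replication and cell cycle contigs but 1 of 108 were without a call (0.926% called). The 1 that rose, dd_4172, is a kinase matched to CDK17 and annotated as NLK-1. Of 267 neural-annotated contigs, 2 fell and 0 rose (0.749%). These were dd_5361 (-0.42 ± 0.07) and the disulfide isomerase-like dd_821 (-0.40 ± 0.06).

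Cilia and axoneme contigs had a median log2 change of -0.21, and 11 of the 88 tested had a positive change. Only dd_8903, matched to ODF3, was called lower (-0.63 ± 0.13), which is 1.14% of the list. DESeq2 called 15 lower, beside 3.45% of all contigs. Without control RNAi replicate 3, 11 were called lower, where 149 of all contigs were. The summed level of the list was 3794 to 3985 RPM in *activin-2* RNAi and 4019 to 5570 RPM in control RNAi. Outside that list, the centrosomal contigs dd_9671 (CEP78, -0.55 ± 0.11) and dd_13976 (AZI1, -0.55 ± 0.11) and the tubulin-modifying enzyme contig dd_10244 (TTLL3, -0.51 ± 0.08) fell, and were chosen after their values were seen.

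**Figure D4:**
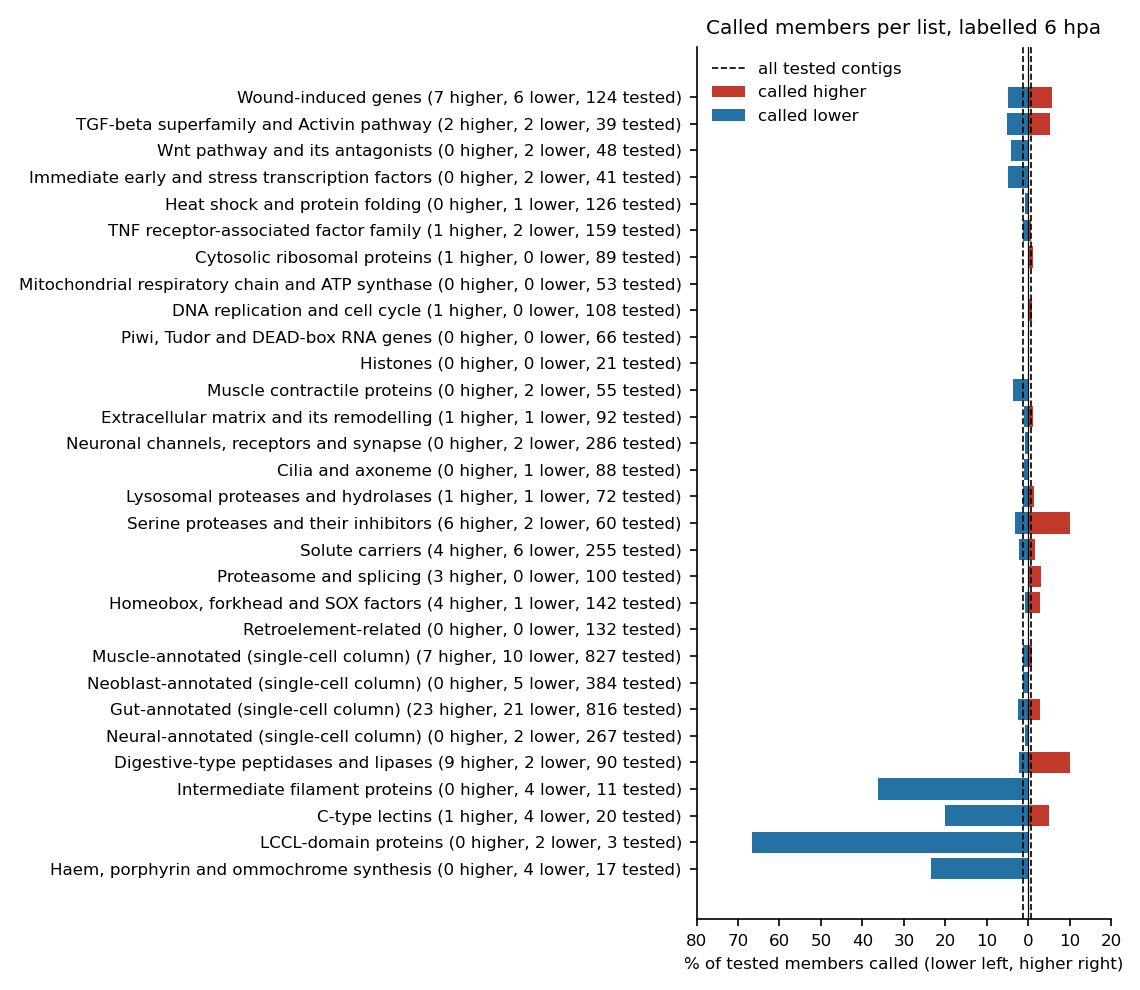
Percentage of tested members called lower (left of 0) and higher (right of 0) in each list. The numbers beside each name are the counts, and dashed lines mark the shares of all tested contigs, 1.26% lower and 0.738% higher. The last 5 lists were chosen after values had been seen. Longer bars on the right belong to the serine protease (6 of 60) and digestive-type (9 of 90) lists. All 6 of the first list are among the 9 of the second.

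Genes of general cell functions were mostly without calls. Of 89 cytosolic ribosomal protein contigs 1 was called (1.12%), dd_97 (RPL37, log2 change 0.30 ± 0.06). Yet 75 of 89 had a positive change and the median was 0.17. Their summed level was 41590 to 43680 RPM in *activin-2* RNAi and 38050 to 40130 RPM in control RNAi. DESeq2 called 14 higher, beside 2.58% of all contigs. Without *activin-2* RNAi replicate 3, 38 were called higher and 1 lower, where 379 of all contigs were called higher and 341 lower. Of 53 respiratory chain contigs, 66 Piwi, Tudor and DEAD-box contigs, 21 histone contigs and 132 retroelement-related contigs, 0 were called by edgeR. Beside 1368 higher and 1649 lower of all 16536 tested contigs, 6, 12, 4 and 10 of these lists had an unadjusted p under 0.05, in that order. Those with the smallest p were dd_13028 (0.88 ± 0.26) and dd_1384 (0.18 ± 0.06) of the respiratory chain, dd_10179 (-0.62 ± 0.15) and dd_13831 (-0.41 ± 0.12) of the DEAD-box genes, dd_3326 (0.28 ± 0.08) and dd_506 (0.21 ± 0.06) of the histones, and dd_5045 (0.28 ± 0.06) and dd_13935 (-0.48 ± 0.11) of the retroelement-related contigs. DESeq2 called 2 histone contigs higher, 1 retroelement-related contig in each direction, and 0 of the other pair of lists. The 3 splicing contigs that rose of 100 proteasome and splicing contigs (3.0%) were dd_473 (SRSF6), dd_633 and dd_1001 (SF3A1), by 0.28 to 0.38. Pescadillo, dd_900, a ribosome assembly factor, rose by 0.39 ± 0.06 and was chosen after its values were seen.

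Solute carriers moved in both directions, 4 higher and 6 lower of 255 (3.92%), with a median log2 change of 0.04. The mitochondrial ADP/ATP carrier contig dd_50 had 4453, 4457 and 4135 RPM in *activin-2* RNAi and 2912, 3153 and 2877 RPM in control RNAi (0.59 ± 0.08, adjusted p = 0.0163). The anion exchanger contig dd_2778, matched to SLC4A2, had 77.9, 93.5 and 83.9 RPM in *activin-2* RNAi and 152, 149 and 121 RPM in control RNAi (-0.68 ± 0.10). The amine or amino acid transporter contig dd_3642 rose by 0.54 ± 0.09 and the nucleobase transporter-like dd_9401 by 0.49 ± 0.08. Of 159 tested TNF receptor-associated factor contigs, an expanded family in planarians, dd_2026 rose by 0.34 ± 0.06 and dd_4392 and dd_3875 (-0.64 ± 0.13) fell. The called ones made up 1.89% of the family's list. Of 126 heat shock and folding contigs, dd_821 alone was called (0.794%). The synaptotagmins dd_13680 and dd_8909 (-0.44 ± 0.09) were the 2 called of 286 neuronal channel, receptor and synapse contigs (0.699%). Of 72 lysosomal hydrolase contigs, the called ones (2.78%) were the ceramidase dd_1726 and the lipase dd_2786.

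Some large changes belong to contigs without any description. Contig dd_1491 had 151, 179 and 174 RPM in *activin-2* RNAi and 62.9, 71.6 and 56.8 RPM in control RNAi (log2 change 1.44 ± 0.09, adjusted p = 0.000626). Contig dd_1202 had 14.7, 19.2 and 21.0 RPM in *activin-2* RNAi and 2.83, 4.84 and 6.13 RPM in control RNAi (2.00 ± 0.23). Contig dd_4939 changed by 1.89 ± 0.23 on between 46 and 60 counted reads in *activin-2* RNAi libraries and 11 to 14 in control RNAi libraries. The ShK-domain contig dd_496 changed by -3.21 ± 0.54, with 1.16, 0.824 and 0.251 RPM in *activin-2* RNAi and 9.65, 3.56 and 12.4 RPM in control RNAi. Among contigs with a description, dd_4280, matched to the amino acid enzyme sarcosine dehydrogenase, had 87.4, 84.5 and 78.0 RPM in *activin-2* RNAi and 53.7, 57.2 and 50.7 RPM in control RNAi (0.67 ± 0.08). The low-level contig dd_13478, matched to KIAA0319L, changed by -1.34 ± 0.25.

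The same contigs were then read in the libraries of other labels, which share no library with these 6. Of the 122 contigs that rose at the label 6, 95.9% had the same sign at the label 0, 89.17% of those tested at 18 hpa anterior-facing wounds, 81.67% at 18 hpa posterior-facing wounds, 48.36% at the label 24 and 94.21% at the label 48 hpa. Positive signs made up 50.3% to 53.4% of all contigs in these comparisons. Of the 208 that fell, 97.6%, 91.3%, 91.3%, 74.04% and 96.15% had the same sign at those labels in the same order. The label 24 hpa thus stood apart for the contigs that rose. There, 24 of the 122 were called higher and 14 lower, where 4.51% of all contigs were called higher and 7.96% lower (12.5% in all). Of all contigs, 1.09% were called higher and 3.13% lower at the label 0 (4.22% in all), and 0.762% and 1.88% at anterior-facing wounds at 18 hpa (2.64%). At posterior-facing wounds at 18 hpa these shares were 3.15% and 5.78% (8.93%), and at the label 48 they were 0.496% and 1.84% (2.33%). Only 36 of the 330 were called the same way at all other labels and orientations, 7 of them higher and 29 lower, among them dd_10_1, dd_1226, dd_1317, dd_1491 and dd_135. Another 97 were called at no other label. *activin-2* itself changed by -3.45, -3.91 and -3.15 at the labels 0, 24 and 48 hpa, but by 0.69 and -0.79 at anterior- and posterior-facing wounds at 18 hpa, where it was not called.

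**Figure D5:**
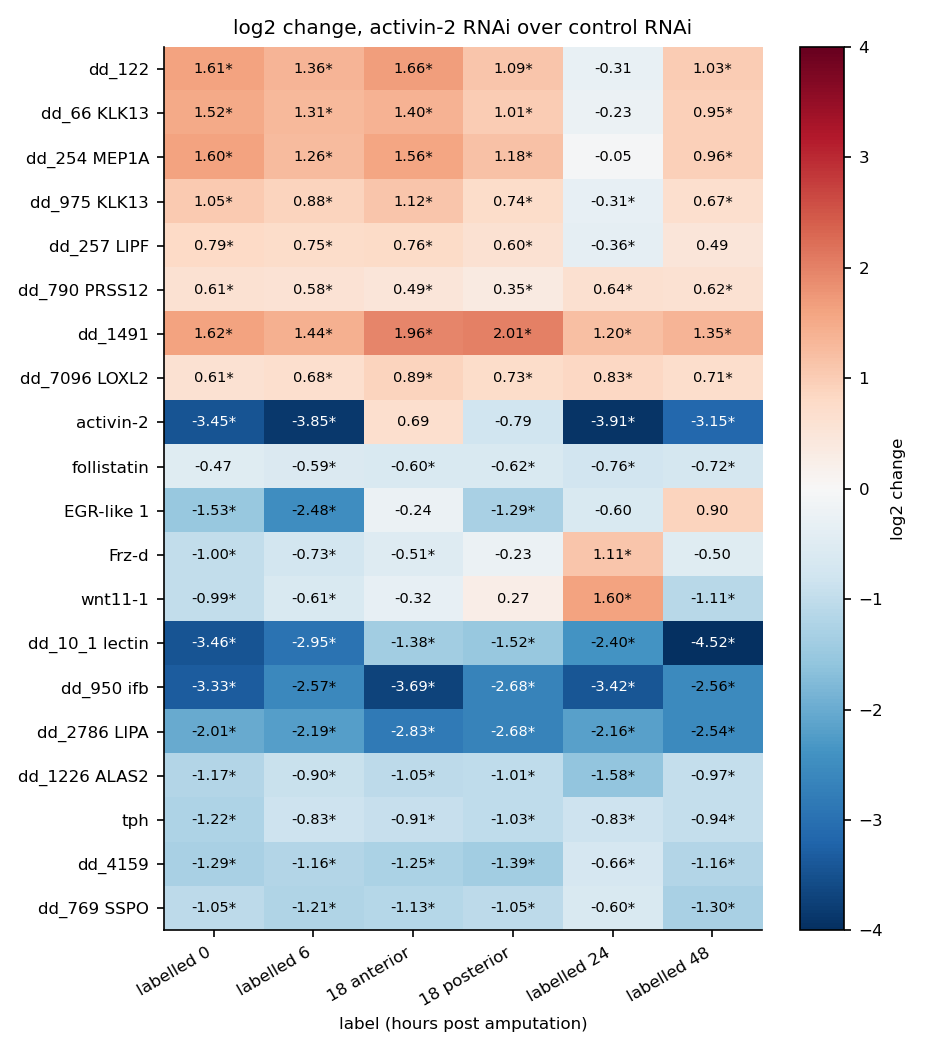
The RNAi effect on 20 contigs at each label, as log2 changes from separate fits. Asterisks mark an adjusted p under 0.05. Contigs dd_122, dd_66, dd_254, dd_975 and dd_257 change by 0.60 to 1.66 on the log2 scale at the labels 0, 6 and 18 hpa, and by -0.36 to -0.05 at the label 24 hpa.

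Whether the RNAi effect at the label 6 hpa differed from that at another label was tested in a fit of all 12 groups. Against the label 0 hpa, 0 of 18350 contigs passed, with 1107 at an unadjusted p under 0.05 and a smallest adjusted p of 0.402 (edgeR), and DESeq2 was not run for these differences. Against posterior-facing wounds at 18 hpa, 13 contigs passed (0.0708%), 9 with a higher (0.049%) and 4 with a lower value (0.0218%) at the label 6. *notum* differed by -1.53 ± 0.26 on the log2 scale (adjusted p = 0.00731), since its log2 change of -0.13 at the label 6 stood against 1.43 at 18 hpa. Contig dd_1531 differed by 0.96 ± 0.12 (adjusted p = 5.72e-05) and had not been called at 18 hpa (log2 change -0.11). The count was 2 to 7 when 1 library labelled 6 hpa was left out and 125 with only the 4 groups in the fit.

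A comparison with the label 24 hpa was added after values had been seen, and its contigs were partly chosen for the difference. In the same fit, 1443 contigs (7.86%) had a different RNAi effect, 958 with a higher (5.22%) and 485 with a lower value (2.64%) at the label 6. With scaling by library size only, 385 were higher and 1832 lower, so the split by direction moved with the scaling. Without *activin-2* RNAi replicates 1 and 2 and control RNAi replicate 2, the count was 871, 855 and 753. Of all 122 contigs called higher at the label 6, 67 had a higher effect there than at the label 24. Of the 208 called lower, 59 had a lower effect. Of the 11 digestive-type contigs called at the label 6, 7 had a higher effect there than at the label 24, from 1.14 ± 0.18 for dd_257 to 1.76 ± 0.23 for dd_3728. The PRSS12-like dd_790 did not (-0.02 on the log2 scale, adjusted p = 0.955). *EGR-like protein 1* (-1.84 ± 0.48), dd_11650 (-1.81 ± 0.31) and *wnt11-1* (-2.19 ± 0.41) had lower effects at the label 6. The last 2 had risen at the label 24, where their log2 changes were 1.11 and 1.60.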

How the data were processed

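RNA of tail fragments was made into stranded poly(A) libraries. The authors mapped reads to the dd_Smed_v6 transcriptome with Bowtie (version 1.2 in the submitters' processing notes, after CASAVA 1.9 and cutadapt 1.8; the paper names another version), counted them per contig and summed isotigs, so the deposited values are raw read counts. The deposited comparison table supplied contig annotations only. Its log2 fold changes and p-values, the authors' own comparisons, were not used.

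The quasi-likelihood test of edgeR 4.0.16 (R 4.3.3; TMM scaling, prior count 2, contigs kept by filterByExpr with count and total minimums of 10 and 15) was applied to the 3 *activin-2* RNAi and 3 control RNAi libraries. DESeq2 was the study's tool and is here an alternative (version 1.42.0). A contig was called where its p, adjusted after Benjamini and Hochberg across every contig tested, was under 0.05. An SE is the log2 change divided by the square root of its F statistic. RPM is the count over the library total, times 1000000. Counting depth limits contigs under about 1 RPM, which rest on few reads.

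Named contigs were polarity, wound and marker genes of the study; the 12 largest rises and 12 largest falls with a description and the 3 largest of each without, among called contigs of at least 1 RPM on average whose arms did not overlap; and, per list, up to 4 called members by smallest p, or the 2 of smallest p. 2 contigs that this rule names are not reported here. All others were chosen after their values were seen, also where the text does not mark them (dd_1491, dd_769, dd_9220, dd_15272, dd_7311, dd_181, dd_354, dd_652, dd_11254, dd_11501, dd_3257 and dd_2293). The members and lists were chosen with earlier results of these data known. The scripts were tested on simulated data.

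Alternatives were DESeq2, RLE normalization, library size only, no filter, a joint fit of the 12 groups, replicate blocks, and each library left out. Epidermis was among the annotation searches, and matched 0 contigs. Sequences are not printed here.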

Additional observations from a re-analysis of the deposited data

Results flagged for a closer look

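RNAi effects that differed between labels were tested as differences within 1 fit of all 12 groups and are log2 values of the label 6 minus the other label, from edgeR's quasi-likelihood test. Against posterior-facing wounds at 18 hpa, *notum* (dd_Smed_v6_24180_0_1) differed by -1.53 (adjusted p = 0.00731) and dd_Smed_v6_1531_0_1 by 0.96 (adjusted p = 5.72e-05). Against the label 24 hpa, a comparison added after values had been seen, higher effects at the label 6 were found for the digestive-type contigs dd_66 (1.57), dd_4570 (1.68), dd_254 (1.34), dd_3728 (1.76), dd_975 (1.23) and dd_257 (1.14), with adjusted p from 3.40e-06 to 0.000193. Lower effects at the label 6 were found for *EGR-like protein 1* (-1.84), the EGR1-matched dd_12410 (-1.74), dd_1531 (-0.72), the Frizzled contig dd_11650 (-1.81), *wnt11-1* (-2.19), the innexins dd_11254 (-0.88) and dd_11501 (-0.73), and dd_3257 (-1.13), with adjusted p from 0.000229 to 0.0492. The labelled times may be exchanged, and batch and label cannot be told apart. With 3 libraries per arm, no group was large enough for a search for outlying libraries.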

How the results depend on the processing

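Against 330 contigs called at the label 6 hpa, DESeq2 called 767 and the fit of all 12 groups 815, sharing 313 and 294 of the 330, while leaving out 1 library gave 64 to 720. RLE normalization gave 278, library size only 413 and no filter on low counts 444. The median log2 change of all contigs was -0.04 with library size only and within 0.03 of 0 otherwise. *activin-2* was called under every alternative run, between -3.91 and -3.74 without single libraries. Whether replicate numbers pair the libraries was not settled. Deviations from the arm means correlated at 0.33, -0.22 and -0.01 for same-numbered libraries and at -0.35 to 0.34 for others. With 3 libraries per arm, these values cannot exclude a pairing. With a replicate block, 232 contigs were called, and the RNAi effect differed from that at the label 0 hpa in 4 contigs (0 without the block) and from that at 18 hpa in 47 (13 without it). The 18 hpa difference held 125 contigs with only 4 groups in the fit and 2 to 7 without single libraries. The 24 hpa difference, 1443 contigs, was 2217 with library size only and 753 to 1839 without single libraries. Of 111 named contigs called, 0 were reversed under any of these alternatives. With DESeq2, which gave no adjusted p for dd_561, dd_8673, dd_16297, dd_12410, dd_14711 and dd_4939, calls were lost for 1 of 104. They were lost for 33 of 110 with the block and 4 to 70 of 110 without single libraries. Among those called in 1 of the fits without a single library were dd_769, dd_50, dd_7096, dd_73, dd_13478, dd_18243, dd_900 and dd_1694, while dd_7845 and dd_4299 were called in 0. The cause was not tested. Depth limits contigs under about 1 RPM, such as dd_12410.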
